A study of Mus musculus with 5 samples.

Results

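The genes described here build and control mitosis: 57 genes for mitotic kinases and their regulators, the centromere and kinetochore, the spindle checkpoint, the exit from mitosis and cytokinesis. They were chosen by name, with earlier results of these data known. Each of the 57 was found once among the 21801 genes of the table. RNA sequencing measured them in mouse neuroepithelial cells (NECs), which line the early neural tube and divide there, and which the labels also call neural progenitor cells. They were purified cells, by the series' own account of the study, whose title names the mouse neocortex. All 5 libraries belong to 1 group, replicates 1 to 5, with no treatment, genotype or second cell type to compare, and the sources used here give no strain, embryo age or purification method. Nothing says that each replicate is its own animal or litter, so p-values cover only how far these 5 samples spread, and that spread may be technical.

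Cells enter mitosis when the kinase Cdk1, bound to a cyclin, is freed of inhibitory phosphates: Wee1 and Pkmyt1 add them and the Cdc25 phosphatases remove them. Kinetochores assembled on centromeric chromatin then attach chromosomes to spindle microtubules, and the spindle checkpoint holds the anaphase-promoting complex (APC/C), a ubiquitin ligase, inactive until every chromosome is attached. Once its activator Cdc20 is released, the APC/C marks securin and cyclin B for destruction, separase opens cohesin and the cell divides. In the neuroepithelium mitosis takes place at the apical surface, and spindle orientation sets how apical membrane is shared between the daughter cells.

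The deposited values are FPKM (fragments scaled to transcript length and to 1000000 mapped reads), so levels of different genes can be set side by side per length. Low values fell in steps that put about 20.3 M to 28.3 M reads (M, 1000000) behind a library. At that depth 1 FPKM in a transcript of 2000 bases stands for 40.6 to 56.7 reads. The labels give a mean of 35 M reads, which was not used for the read numbers given here. Levels are means ± SD over the 5 libraries (n = 5). Differences between genes and from a level, marked log2, are on the log2(FPKM + 1) scale, which understates them for low genes. A gene was called above or below a level when limma's moderated test of log2(FPKM + 1) over the whole table gave a Benjamini-Hochberg adjusted p under 0.05. Of the neural progenitor markers 11 of 12 lay above 1 FPKM, where 52.3% of all genes tested were. Above 10 FPKM lay 5 of the 12, among them Pax6, where 27.7% of all genes were. Another 5 lay below 10 (Sox1, Sox3, Nes, Hes5 and Notch1), and Sox2 was called neither way. Markers of other cells above 10 FPKM were 2 of 14 for neurons, 2 of 8 for surface ectoderm and 1 of 12 for mesenchyme. They were 0 of 6 for neural crest and 0 of 10 for blood and vessel.

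The mitotic genes were abundant as a group, and only 1 lay below 1 FPKM. Of the 57, 56 were called above 1 FPKM, against 52.3% of the 19706 genes tested, and 1, the inhibitory kinase gene Pkmyt1, was called below, against 41.4%. Against 10 FPKM 50 were above, where 27.7% of all genes were, and 5 were below, where 68.4% of all genes were. The members were chosen with earlier results of these data known, so these counts are descriptions. The median of the members' means was 51.3 FPKM, compared with 1.79 over all genes tested. Cdk1 was the highest at 489 ± 89.6 FPKM, rank 281 of all genes, and Pkmyt1 the lowest at 0.513 ± 0.143, rank 12168. The 5 below 10 FPKM were Wee1, Pkmyt1, Incenp, Kntc1 and Espl1, and the 2 called neither way were Fzr1 and Numa1. With each library rescaled to a sum of 1000000 FPKM, which raised all values by 0.24 to 0.42 on the log2 scale, 3 members were called below 10 FPKM (Wee1, Pkmyt1 and Incenp). Between libraries the SD of log2(FPKM + 1) had a median of 0.15 among the members. It was 0.16 among the 10983 genes that averaged 1 FPKM or more. Those genes had a lower median level, 11.7 FPKM against 51.3, so the 2 spreads are not matched for level. Exons of 18 members overlap exons of another gene, on the other strand in 17 (such as Exosc9 for Ccna2, Spef1 for Cdc25b, Mfsd12 for Fzr1, Tnnc2 for Ube2c, Rccd1 for Prc1, Il18bp for Numa1 and Clcc1 for Gpsm2), and since no strand-keeping step is stated, their levels may hold reads of both genes.

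**Figure D1:**
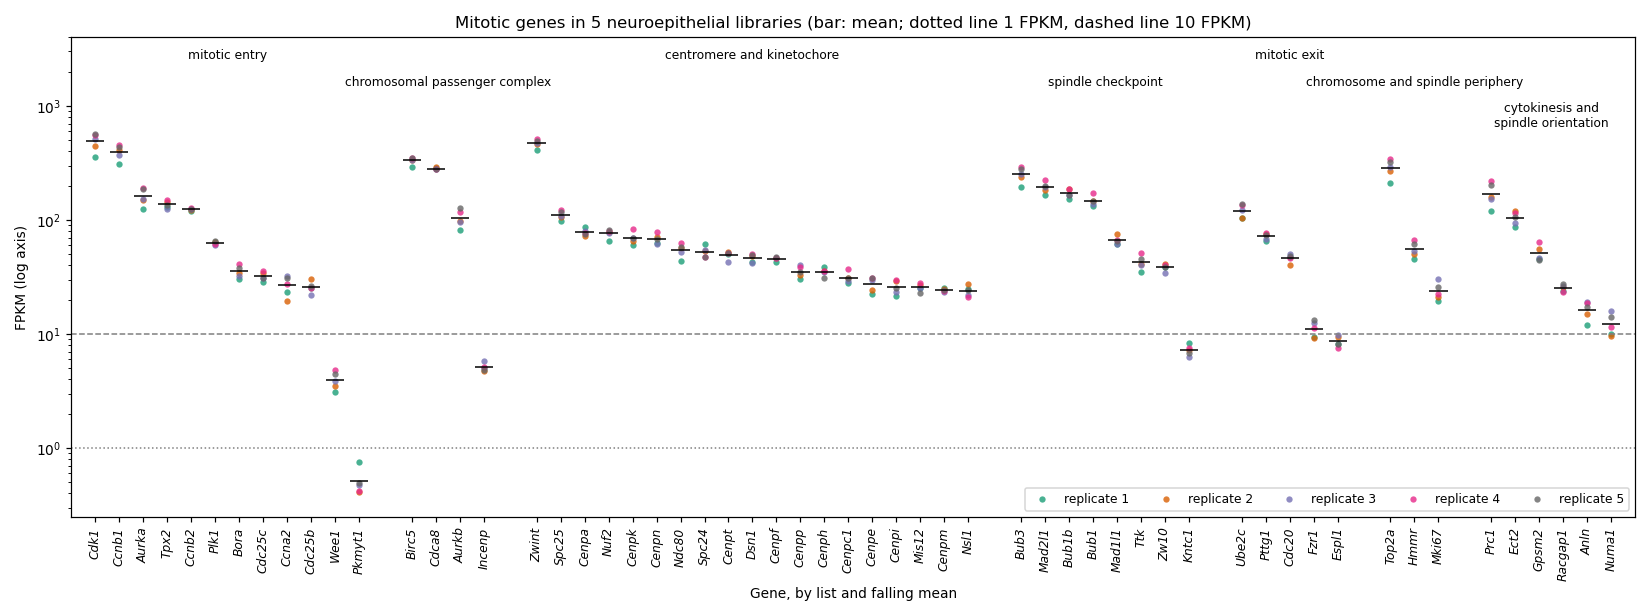
FPKM of each of the 57 genes (log axis) in 5 libraries, grouped by list and ordered by mean; points are libraries, bars are means, the dotted and dashed lines mark 1 and 10 FPKM. Cdk1 and Zwint stand highest, and Wee1, Pkmyt1, Incenp, Kntc1 and Espl1 stand below the dashed line.

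The promoters of these genes share sequence elements that were not used to choose them. Many genes transcribed late in the cell cycle carry the cell cycle genes homology region (CHR), with the letters TTTGAA, which binds the MuvB complexes that repress or activate them, and CCAAT boxes, which bind the factor NF-Y. Both were searched on both strands of RefSeq promoter windows of 300 bases (250 before the annotated start and 50 from it, build GRCm38.p6). Windows were found for 47 of the 57. TTTGAA was present in 26 of the 47 (55.3%), compared with 20.2% of the 27025 genes with a window and 14.3% of the 8197 of them that averaged 1 FPKM or more. Within 50 bases of the start it was present in 24 (51.1%), compared with 5.72% and 3.89%. CCAAT was present in 35 (74.5%), compared with 41.1% and 44.2%, and both motifs in 23 (48.9%), compared with 7.97% and 6.23%. The motifs shared bases in Cdca8 and Kntc1. TTTGAA was found in 5 of 6 cytokinesis and orientation genes, 4 of 6 entry genes, 5 of 8 checkpoint genes, 3 of 5 exit genes, 1 of 2 passenger genes, 3 of 3 chromosome and spindle genes and 5 of 17 kinetochore genes. Ccnb1 had 2 CCAAT boxes and no TTTGAA, and Birc5 had neither motif. The 26 members with TTTGAA had a median level of 65.9 FPKM and the 21 without it 46.4, and levels overlapped widely: the former ran from Kntc1 at 7.25 to Cdk1 at 489 FPKM and the latter from Fzr1 at 11.1 to Zwint at 472. A match is a description of letters and not a site shown to be bound.

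In the sequences below capitals mark TTTGAA or its reverse TTCAAA and CCAAT or its reverse ATTGG, each sequence 5′ to 3′ on the gene's strand. Windows of 100 bases just upstream of the annotated start, free of exons, give examples of how the elements are placed. They lie at chr10:69352939-69353038 (minus strand) for Cdk1, chr11:99024190-99024289 (minus) for Top2a, chr9:70421555-70421654 (minus) for Ccnb2, chr4:118437353-118437452 (minus) for Cdc20, chr3:108722310-108722409 (minus) for Gpsm2 and chr10:72654745-72654844 (plus) for Zwint. Cdk1 and Top2a, with levels above 200 FPKM in every library, carry a CHR match with 2 and 3 CCAAT boxes in these windows. In Ccnb2 3 CCAAT boxes stand upstream of a CHR match that lies past the start and is shown with the sites that follow. Zwint, close to Cdk1 in mean level, shows 1 CCAAT box and no TTTGAA. These windows are examples and do not measure how common a placement is. Among the 47 members with a promoter window, TTTGAA started most often at 0 to 24 bases from the start (10 members). Upstream windows like these leave out such matches.
Cdk1: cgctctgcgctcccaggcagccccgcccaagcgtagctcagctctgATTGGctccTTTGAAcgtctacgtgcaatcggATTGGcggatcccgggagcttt
Top2a: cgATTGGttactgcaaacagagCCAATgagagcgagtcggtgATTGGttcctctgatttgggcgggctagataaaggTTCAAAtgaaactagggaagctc
Ccnb2: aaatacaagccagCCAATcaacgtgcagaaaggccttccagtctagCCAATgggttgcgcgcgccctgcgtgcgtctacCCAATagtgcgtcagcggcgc
Cdc20: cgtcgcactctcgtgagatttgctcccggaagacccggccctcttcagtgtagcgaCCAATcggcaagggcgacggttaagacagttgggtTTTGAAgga
Gpsm2: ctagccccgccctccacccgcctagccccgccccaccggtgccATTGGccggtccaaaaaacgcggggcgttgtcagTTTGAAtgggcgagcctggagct
Zwint: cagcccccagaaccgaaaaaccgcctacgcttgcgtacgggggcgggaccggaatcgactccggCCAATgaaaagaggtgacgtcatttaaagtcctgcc

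Sites of 30 bases around TTTGAA are shown for 9 genes of entry, kinetochore, checkpoint, exit and cytokinesis, because 24 of the 26 members had a match within 50 bases of the start. They are at chr7:122159453-122159482 (plus) for Plk1, chr2:172370521-172370550 (minus) for Aurka, chr9:70421533-70421562 (minus) for Ccnb2, chr5:30666890-30666919 (plus) for Cenpa, chr2:69206172-69206201 (minus) for Spc25, chr9:83834684-83834713 (plus) for Ttk, chr2:164769888-164769917 (plus) for Ube2c, chr15:102296254-102296283 (plus) for Espl1 and chr15:99651634-99651663 (minus) for Racgap1. Their levels run from Espl1 at 8.62 FPKM to Aurka at 162 FPKM.
Plk1: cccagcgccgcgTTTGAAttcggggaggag
Aurka: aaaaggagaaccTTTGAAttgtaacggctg
Ccnb2: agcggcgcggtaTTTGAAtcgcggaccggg
Cenpa: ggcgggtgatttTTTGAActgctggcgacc
Spc25: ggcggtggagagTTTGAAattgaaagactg
Ttk: cagcggggaaatTTCAAAcgtgtttccgga
Ube2c: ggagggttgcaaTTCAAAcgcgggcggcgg
Espl1: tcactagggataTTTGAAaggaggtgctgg
Racgap1: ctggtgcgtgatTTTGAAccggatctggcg

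**Figure D2:**
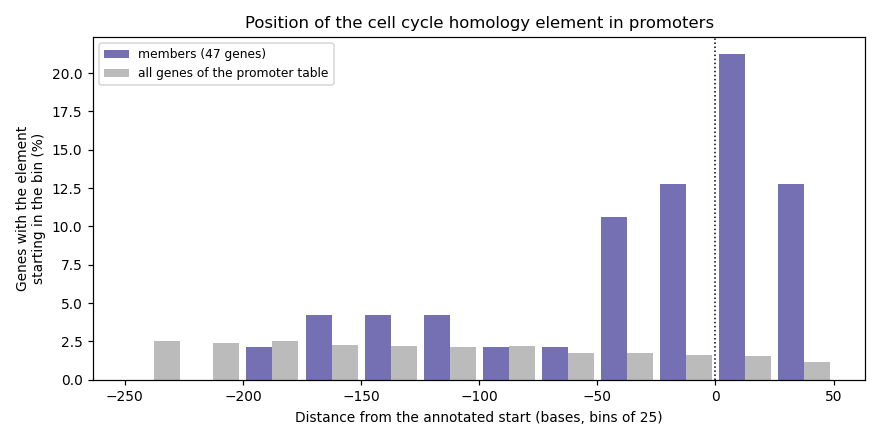
Share of genes (y axis, percent) with the cell cycle homology element starting in each bin of 25 bases, by distance from the annotated start (x axis), for the 47 members with a promoter window and for all 27025 genes with one. The members' share is highest in the first 25 bases from the start, at 21.3%, where it is 1.54% over all genes.

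Among the 12 genes of mitotic entry the kinase and its cyclin B partners were high and the inhibitory kinases low. Cdk1 (ENSMUSG00000019942, chromosome 10, 69335146 to 69352938 on mm10) had values of 353, 447, 515, 558 and 570.1 FPKM, in the order of replicates 1 to 5 used throughout, and Ccnb1, the main mitotic cyclin, values of 311, 407, 369.9, 453 and 437. Both were lowest in replicate 1, and the ranges of these 2 genes overlapped. Ccnb2, a second B cyclin, varied least of the entry genes, at 119.6, 122, 125, 128 and 124 FPKM. Ccna2, the cyclin of S phase and early mitosis, stood at 23.5, 19.3, 32.5, 27.3 and 30.7 FPKM, below every library's value of either B cyclin. Ccnb1 exceeded Ccnb2 by 1.66 ± 0.19 on the log2(FPKM + 1) scale, higher in 5 of 5 libraries. Pseudogenes named Ccnb1-ps and Ccnb2-ps are annotated, so reads could have been split and the 2 cyclin levels are uncertain.

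Wee1, which phosphorylates Cdk1 in the nucleus, was listed at 3.12, 3.47, 3.84, 4.84 and 4.50 FPKM, above 1 FPKM (log2 difference 1.30, SE 0.10, limma adjusted p = 4.6e-06) and below 10. Pkmyt1, which does so at membranes, was listed at 0.761, 0.415, 0.475, 0.422 and 0.494 FPKM and lay below 1 FPKM (log2 difference -0.41, SE 0.06, limma adjusted p = 0.000232). The value of replicate 1 stood above the other 4, and its level rests on about 17.7 to 31.9 reads a library. Wee1 was higher than Pkmyt1 in 5 of 5 libraries, by 1.70 ± 0.31 on the log2(FPKM + 1) scale, and Cdk1 exceeded Wee1 by 6.62 ± 0.12. That scale understates differences of genes this low, also those from 1 FPKM above. By mean FPKM, Wee1 was 7.70 times Pkmyt1 and Cdk1 124 times Wee1. Exons of Paqr4 overlap those of Pkmyt1 on the other strand.

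The opposing phosphatases among the members, Cdc25b and Cdc25c, were close to each other. Cdc25a, listed with the further entry regulators, was lower at 15.3 ± 1.48 FPKM. Cdc25b was listed at 25.1, 30.5, 22.2, 25.5 and 26.4 FPKM and Cdc25c at 28.6, 34.0, 31.2, 35.5 and 30.8. The 2 ranges overlapped, but Cdc25c was the higher in 5 of 5 libraries and the difference of Cdc25b minus Cdc25c was -0.30 ± 0.16 on the log2 scale. Among the activating kinases Aurka, which acts at the centrosome and spindle poles, was listed at 125, 150.3, 154, 192 and 188 FPKM. Plk1, which acts from centrosome to midbody, varied little, at 64.3, 64.5, 60.8, 61.4 and 65.7 FPKM. Their cofactors stood apart without overlap. Tpx2, which activates Aurka on spindle microtubules, was listed at 131, 145, 126, 151 and 137 FPKM. Bora, which helps Aurka to activate Plk1, was listed at 30.5, 34.6, 32.3, 41.2 and 38.3 FPKM. In each library Bora was the lower gene of both its pairs: Tpx2 exceeded it by 1.94 ± 0.11 and Plk1 by 0.83 ± 0.18 (log2).

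The 4 subunits of the chromosomal passenger complex, which corrects faulty attachments and guides cytokinesis, were far apart in level. Birc5 (survivin) was listed at 292, 334, 339, 351 and 347 FPKM and Cdca8 (borealin) at 285, 290.2, 278, 279.7 and 279. Their kinase Aurkb stood at 82.2, 98.3, 95.4, 118 and 127 FPKM. Incenp, the scaffold that holds the kinase and the other subunits together, was listed at 5.00, 4.76, 5.82, 5.13 and 4.80 FPKM, and no library of it came near the others. Birc5 was 65.2 times Incenp by mean, 58.2 to 72.2 times within a library, the widest gap of the 6 complexes compared. Aurka exceeded its paralog Aurkb by 0.63 ± 0.06 (log2) in every library. The difference of Birc5 minus Incenp was 5.77 ± 0.14.

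All 19 centromere and kinetochore genes lay above 10 FPKM, where 27.7% of all genes tested were. Theirs was the 1 list of the 4 main lists with every gene above 10 FPKM. Zwint, which links the outer kinetochore to the checkpoint, was listed at 412, 464, 476, 517 and 493 FPKM, above every other gene of the list in each library. Spc25 followed at 97.9, 106, 108, 121 and 117 FPKM, and Nsl1 was the lowest by mean at 24.9, 27.6, 21.8, 21.2 and 24.1. Apart from Zwint the list ran from 23.9 to 110.1 FPKM, and many neighbours in that order overlapped between libraries.

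On the inner side Cenpa, the histone variant that marks the centromere, was listed at 87.5, 71.6, 80.2, 76.9 and 75.3 FPKM, and Cenpc1, which binds it and recruits the rest, at 28.1, 31.0, 29.0, 37.4 and 30.7. Cenpa was highest in replicate 1, where 32 of the 57 members were lowest, and it exceeded Cenpc1 in every library, by 1.30 ± 0.23 (log2). The other inner kinetochore subunits ran from Cenpm at 24.4 ± 0.84 through Cenpi (25.8 ± 3.64), Cenph (35.2 ± 2.69), Cenpp (35.3 ± 4.13), Cenpt (49.7 ± 3.75) and Cenpn (68.4 ± 6.83) to Cenpk at 69.5 ± 8.90 FPKM. From Cenpm to Cenpk is 2.85 times, the widest ratio among these 7 and Cenpc1.

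On the outer side the NDC80 complex, which binds microtubules, had 2.08 times between its extremes. Its microtubule-binding arm was Ndc80 at 44.0, 56.7, 52.1, 62.2 and 58.5 FPKM and Nuf2 at 65.8, 78.5, 76.7, 80.5 and 81.9. Its inner pair was Spc24 at 61.2, 53.9, 54.6, 47.1 and 47.3 FPKM with Spc25 at the values above. Nuf2 was the higher of the former pair and Spc25 of the latter in 5 of 5 libraries, with differences of -0.49 ± 0.08 for Ndc80 minus Nuf2 and -1.05 ± 0.28 for Spc24 minus Spc25. Spc24 was highest in replicate 1, where its 3 partners were lowest. The MIS12 complex, which joins NDC80 to the inner kinetochore, spanned 1.94 times, with Dsn1 at 46.4 ± 3.86, Mis12 at 25.7 ± 2.04 and Nsl1 at 23.9 ± 2.57 FPKM. Of the large coiled-coil proteins of the outermost layer Cenpf was listed at 42.4, 46.2, 46.2, 46.3 and 47.7 FPKM and the motor Cenpe at 22.3, 24.5, 29.6, 31.1 and 31.0, with Cenpf the higher in 5 of 5 libraries (Cenpe minus Cenpf -0.72 ± 0.16).

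Of the 8 spindle checkpoint genes 7 lay above 10 FPKM, where 27.7% of all genes tested were. The list's median was the highest of the 4 main lists. Bub3, the adaptor that carries Bub1 and Bub1b to kinetochores, was listed at 195, 237, 251, 294 and 278 FPKM, and Mad2l1, the inhibitor that is loaded onto Cdc20, at 166, 183, 194, 224 and 197. Bub1b (BubR1) stood at 152, 187, 164, 185 and 167 FPKM and the kinase Bub1 at 131, 146, 139, 172 and 145. The ranges of Bub1 and Bub1b overlapped, yet Bub1b was higher in 5 of 5 libraries (Bub1 minus Bub1b -0.22 ± 0.09). Mad1l1, which holds Mad2l1 at the kinetochore, was listed at 61.0, 75.9, 62.1, 66.1 and 65.1 FPKM and the kinase Ttk (Mps1), which starts the signal, at 42.7 ± 6.24. Mad2l1 exceeded Mad1l1 by 1.53 ± 0.19. Of the complex that brings dynein to kinetochores Zw10 stood at 38.3 ± 2.61 FPKM and Kntc1 (Rod) at 8.29, 7.26, 6.34, 7.49 and 6.86, the 1 checkpoint gene below 10 (log2 difference -0.42, SE 0.07, limma adjusted p = 0.000613). After rescaling to a common sum Kntc1 was not called (-0.13, limma adjusted p = 0.145).

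The exit genes sat on both sides of 10 FPKM, with 3 of 5 above it, Espl1 below and Fzr1 called neither way. Of all genes tested 27.7% were above 10 FPKM and 68.4% below. Ube2c, the ubiquitin-conjugating enzyme that works with the APC/C, was listed at 104, 104, 122, 136 and 138 FPKM and securin (Pttg1), the inhibitor of separase, at 65.8, 74.9, 67.8, 77.1 and 74.1. The APC/C activator of metaphase, Cdc20, stood at 47.4, 39.9, 50.6, 46.3 and 48.6 FPKM. The activator of late mitosis and the next gap phase, Fzr1 (Cdh1), stood at 9.33, 9.24, 12.5, 11.3 and 13.2, and its level was not called against 10 FPKM (log2 difference 0.13, SE 0.09, limma adjusted p = 0.193), though it was called above after rescaling to a common sum (0.43, adjusted p = 0.00172). Separase (Espl1), the protease that cuts cohesin, was the lowest by mean at 8.17, 9.39, 9.71, 7.61 and 8.24 FPKM, called below 10 FPKM by a small margin (log2 difference -0.20, SE 0.07, limma adjusted p = 0.0252), a call lost without replicate 1, 4 or 5 (limma adjusted p = 0.0667, 0.0866 and 0.0805) and after rescaling to a common sum (difference 0.098).

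Neither Cdc20 and Fzr1 nor Pttg1 and Espl1 overlapped between libraries, while Fzr1 and Espl1 did. In every library Cdc20 exceeded Fzr1, by 1.98 ± 0.16 (log2), and Pttg1 exceeded Espl1, by 2.92 ± 0.19. Cdc20 lay below all 3 partners in the mitotic checkpoint complex (Mad2l1, Bub1b and Bub3) in every library: Bub3 was 5.39 times Cdc20 by mean, and Cdc20 minus Mad2l1 was -2.03 ± 0.19. Exons of Elovl1 overlap those of Cdc20 on the other strand.

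Genes of the mitotic chromosome and spindle and of cytokinesis varied between libraries, with a median SD of log2(FPKM + 1) of 0.25 and 0.24, against 0.16 over the 10983 genes. Top2a, which untangles sister DNA, was listed at 212, 267, 288, 344 and 325 FPKM. Mki67, which coats mitotic chromosomes and serves as the usual proliferation marker, stood at 19.4, 21.1, 30.6, 22.6 and 25.7, and Hmmr, a spindle assembly protein, at 45.6, 50.8, 53.8, 66.8 and 61.6. All 3 were lowest in replicate 1, and Top2a and Hmmr were highest in replicate 4. Prc1, which bundles the central spindle, was listed at 120.1, 158, 152, 218 and 202 FPKM and had a highest library 1.82 times its lowest, the widest ratio of the members above 1 FPKM.

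Ect2, the exchange factor that switches on RhoA at the division plane, stood at 87.0, 119, 93.1, 115 and 106 FPKM, and its activator Racgap1 at 25.3 ± 1.71. Anln, which ties actin and septins to the contractile ring, was at 16.4 ± 2.88 FPKM. Of the spindle orientation pair Gpsm2 (LGN), the cortical adaptor, stood at 45.7, 55.1, 46.6, 63.9 and 44.9 FPKM and Numa1, which it binds and which recruits dynein, at 9.92, 9.57, 16.0, 11.6 and 14.0. Numa1 minus Gpsm2 was -1.99 ± 0.43 with Gpsm2 higher in 5 of 5 libraries. Against 10 FPKM Numa1 was not called (log2 difference 0.24, SE 0.11, limma adjusted p = 0.0659) and was called above without replicate 1 (0.30, limma adjusted p = 0.0395) or replicate 2 (0.32, 0.0313) and after rescaling to a common sum (0.54, 0.00187).

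**Figure D3:**
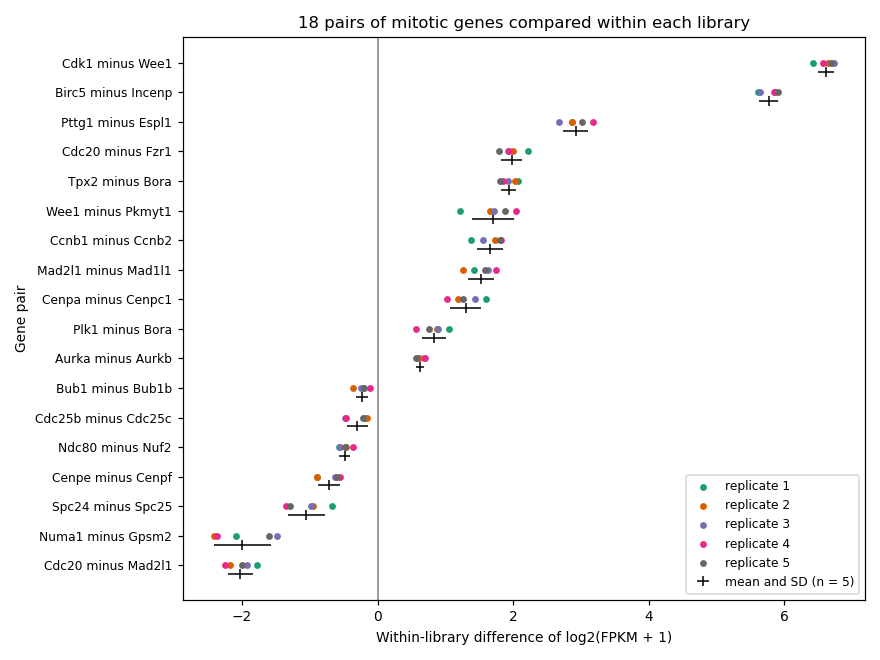
Difference of log2(FPKM + 1) within each library for 18 gene pairs (points, 5 libraries; cross and line, mean and SD). Every pair lies on 1 side of 0 in 5 of 5 libraries, from Cdk1 minus Wee1 at 6.62 to Cdc20 minus Mad2l1 at -2.03.

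All 18 gene pairs compared had the same direction in 5 of 5 libraries, and the plot of pair differences shows each mean difference to be larger than its SD. Pairs of other genes were not compared, and the libraries were alike (Pearson correlation 0.990 to 0.997 over all genes). The count therefore cannot be called particular to these pairs. Flipping signs in all 32 possible ways, a two-sided exact permutation test, gave p = 0.0625 for each pair, also after Benjamini-Hochberg adjustment over the 18, which is the smallest value 5 libraries allow, so no pair could pass 0.05.

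Set against each other by median, the checkpoint list stood above the entry, kinetochore and exit lists. The medians of the latter differed from each other by little more than 1 SD or less. The SDs are over libraries and do not measure the spread between genes. Checkpoint genes ran from 7.25 to 251 FPKM by mean, inside the range of the entry genes, 0.513 to 489. The list median was 106 ± 8.87 FPKM for the checkpoint, 49.4 ± 2.34 for entry, 46.6 ± 4.03 for exit and 45.8 ± 2.49 for the kinetochore. On the log2 scale the checkpoint median exceeded that of entry by 1.04 ± 0.07 (entry minus checkpoint -1.04), that of the kinetochore by 1.09 ± 0.06 (kinetochore minus checkpoint -1.09) and that of exit by 1.06 ± 0.21, each in 5 of 5 libraries. Entry minus kinetochore was 0.05 ± 0.04 with entry higher in 4 of 5 libraries, entry minus exit 0.02 ± 0.17 with entry higher in 3 of 5, and kinetochore minus exit -0.02 ± 0.18 with the kinetochore higher in 2 of 5. No p is given for these medians, because the genes were chosen with earlier results of these data known. With list means in place of medians, entry minus checkpoint was -0.62 and kinetochore minus checkpoint -0.58, while entry and kinetochore exceeded exit by 0.53 and 0.57. With Zw10 and Kntc1 moved to the kinetochore list the checkpoint stood higher still, entry minus checkpoint being -1.72. The order thus depends on which genes are listed. Among the further genes of the pathway given next, the checkpoint median was 35.1 ± 4.35 FPKM. It lay below those of the kinetochore (46.5 ± 7.44) and the APC/C (67.9 ± 1.88) and above that of entry (13.9 ± 1.32).

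Other genes of the pathway, listed by role and also with earlier results of these data known, mostly lay above 1 FPKM too. Of all genes tested 52.3% lay above 1 FPKM, 41.4% below it and 27.7% above 10. These shares stand beside the counts here and in the next paragraph. Of 15 further entry regulators 14 lay above 1 FPKM, 11 above 10 and 4 below 10. Their means had a median of 13.6 FPKM, against 11.7 for the 10983 genes that averaged 1 FPKM or more. They were led by Arpp19 (507 ± 33.4), which inhibits the phosphatase that opposes Cdk1, and Cks1b (436 ± 36.4), a small Cdk1-binding subunit. Lowest was Ccnb3, a cyclin of meiosis, listed at 0 in replicates 2 to 4. Of 17 further centromere and kinetochore genes all lay above 1 FPKM and 16 above 10, with Apitd1 (Cenps) at 99.8 ± 5.09, Hjurp, the chaperone of Cenpa, at 91.9 ± 9.07 and Cenpb, which binds satellite DNA, at 2.51 ± 0.40. All 7 further checkpoint genes lay above 1 FPKM and 6 above 10, from Sgol2 at 6.21 ± 1.08 to Zwilch, the partner of Zw10 and Kntc1, at 58.9 ± 5.29 and Tpr at 74.7 ± 12.4.

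The APC/C itself was represented throughout. All 16 of its further genes lay above 1 FPKM and 15 above 10: the subunit Cdc23 stood at 235 ± 20.8 FPKM, the inhibitor Fbxo5 (Emi1) at 206 ± 22.7 and the conjugating enzyme Ube2s, which extends ubiquitin chains after Ube2c, at 7.02 ± 2.04. Of 12 further cytokinesis and orientation genes 11 lay above 1 FPKM and 10 above 10, with Sept7 at 208 ± 21.2 and the motor Kif20a at 169 ± 22.0. Insc, the adaptor that reorients the spindle in other progenitors, lay below 1 FPKM and was listed at 0.868 in replicate 1, 0.331 in replicate 2, 0.0298 in replicate 3, 0.0434 in replicate 4 and 0 in replicate 5. The 8 paralogs used in germ cells, which include Ccnb3 of the entry regulators above, were low: none lay above 1 FPKM, 7 lay below and Rec8, the cohesin subunit of meiosis, was called neither way at 1.24 ± 0.53 FPKM. Ccna1 stood at 0.36 ± 0.18 FPKM, and Cdc20b was above 0 in replicate 1 alone.

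Replicates 1 and 4 were the extremes for many of the mitotic genes. Of the 57, 32 had their lowest value in replicate 1, against 35.0% of the 10983 genes that averaged 1 FPKM or more. Of the 57, 27 had their highest in replicate 4, against 27.0%, and 45 were higher in replicate 4 than in replicate 1, against 62.0%. The members' median difference from the gene's own mean was -0.16 in replicate 1 and 0.13 in replicate 4 on the log2 scale, compared with -0.06 and 0.03 over all those genes. By list it ran in replicate 1 from -0.10 for the passenger complex to -0.27 for Mki67, Top2a and Hmmr. The exit list differed in order: its median difference was lowest in replicate 2 (-0.20, against -0.12 in replicate 1) and highest in replicate 3 (0.12, against 0.03 in replicate 4), and 1 of its 5 genes was lowest in replicate 1. Rescaling by the median ratio left 28 lowest in replicate 1 (22.4% of all genes) and 23 highest in replicate 4 (21.5%), and rescaling to a common sum left 25 (18.5%) and 12 (13.0%). These differences were not tested, since each library is 1 sample.

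Markers of other cells moved between the same libraries. The counts of them above 1 FPKM stand beside the 52.3% of all genes tested. The 12 neural progenitor genes summed to 277 to 328 FPKM, highest in replicate 1 and close to it in replicate 2 (326). Prom1 and Pax6 led these sums. Of the 12, 0 were lowest in replicate 1, and 2 (Vim and Hes5) were highest in replicate 4. The summed level of the 12 mesenchyme genes was 40.3 FPKM in replicate 1, 68.0 in replicate 2, 144 in replicate 3, 119 in replicate 4 and 119 in replicate 5, with 8 of 12 above 1 FPKM and none at 0 throughout. Lum led these sums, at 12.1 FPKM in replicate 1 and 66.1 in replicate 3, and 9 of the 12 were lowest in replicate 1. The 6 neural crest genes summed to 14.6 FPKM in replicate 1 and 41.6 in replicate 3, with 3 of 6 above 1 FPKM. The 14 neuron genes, 7 of them above 1 FPKM, summed to 130 FPKM in replicate 1, 137 in replicate 2, 96.5 in replicate 3, 107 in replicate 4 and 106 in replicate 5. Tubb3 led these sums. Gap43, the 1 neuron gene lowest in replicate 1, ran the other way, from 11.9 FPKM there to 23.4 in replicate 3. Replicate 1 was lowest for mitotic, mesenchyme, crest and surface ectoderm genes, while replicate 3, highest for mesenchyme, was not high for mitotic genes (median difference -0.02). The 8 surface ectoderm genes, 6 above 1 FPKM, summed to 99.5 FPKM in replicate 1, 103 in replicates 4 and 5 and 151 in replicate 2, the highest. Their median difference was -0.26 in replicate 1. The 10 blood and vessel genes, 1 above 1 FPKM, summed to 6.62 to 11.5, with Hbb-bs listed at 0 throughout. In these bulk samples fewer dividing cells and less RNA per cell cannot be told apart, and the part of the other cell types in the mitotic differences was not tested.

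**Figure D4:**
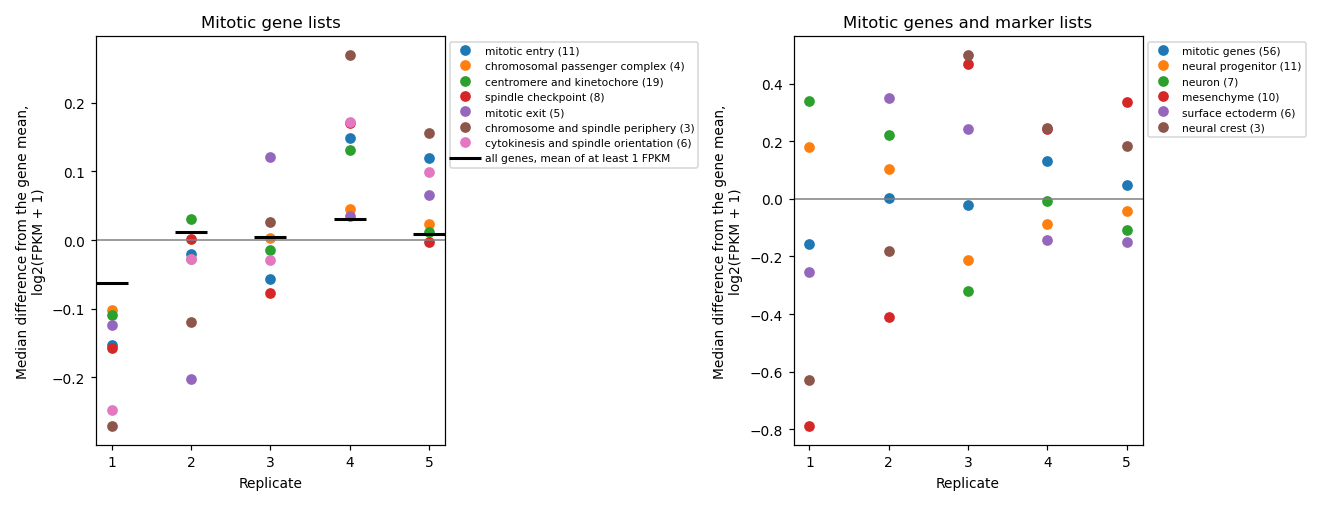
Median difference of log2(FPKM + 1) from the gene's own 5-library mean (y axis) in each replicate (x axis), over genes averaging 1 FPKM or more, whose number is given in brackets. Left, the 7 mitotic lists, all below 0 in replicate 1, with black bars for all 10983 genes; right, the mitotic genes beside marker lists, where mesenchyme runs from -0.79 in replicate 1 to 0.47 in replicate 3.

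Transcript composition also moved with these values. Members whose longest coding transcript in GENCODE M21 had a GC content under 45% (18 genes) had a median difference of -0.23 in replicate 1 and 0.21 in replicate 4, those from 45% to 50% (21 genes) -0.15 and 0.13, and those over 50% (18 genes) -0.05 and -0.01. Over all genes the values were -0.09 and 0.10, -0.08 and 0.06, and -0.03 and -0.02. The low genes Pkmyt1 (62.5% GC), Fzr1 (59.9%), Espl1 (56.1%), Numa1 (55.9%) and Incenp (54.5%) belong to the last class, but so do Cdca8 (52.9%) and Ube2c (55.5%), at 282 and 120.5 FPKM, while Wee1 (49.8%) and Kntc1 (46.2%) lie in the middle class. Across the 57 members Spearman's rho of level with GC content was -0.29 and with transcript length -0.17, and across the 10954 such genes with an annotated transcript -0.13 and -0.24. Genes share libraries and are not independent replicates, so these are descriptions. The part of GC content and length in the differences between genes and libraries was not tested.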

How the data were processed

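Per the labels' protocols, cDNA was primed on poly(A) tails, extended by template switching, put through 12 cycles of amplification, sheared, turned into libraries with 15 PCR cycles and read from 1 end for 75 bases. The authors deposited 1 table of FPKM, and per the submitters' processing notes the tools were Cuffdiff 2.2.1, TopHat2 2.0.11, cutadapt and CASAVA 1.8 and the build mm10, with roles not stated. The annotation release is not given in the sources used here. No molecular identifiers are described, and amplification can favour some transcripts over others, which touches comparisons between genes most.

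Count tests were not used on FPKM. limma 3.58.1 (R 4.3.3) fitted an intercept to log2(FPKM + 1), with a variance trend, over the 19706 genes above 0 in at least 1 library, and tested it against 1 and 10 FPKM. The scale understates differences of low genes. The script was tested on simulated data. Gene pairs were compared by an exact sign-flip test (Python 3.11.15). Read totals come from the steps of low values in single-transcript genes, after taking 200 bases off their length, and are approximate; intervals of counting error were not derived from them. Coordinates, lengths and GC are from GENCODE M21 (mm10), which held 21537 of the gene IDs, and promoters from RefSeq. Exons of 18 members overlap another gene's, 17 of them on the other strand.

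The members and lists were chosen with earlier results of these data known. All 57 members could be named; values of every library were given for the 2 highest and the lowest of each list and for genes of the pairs, and the 2 highest and the lowest of each further list were named. Cdc25a and the marker and overlapping genes named outside that rule were picked with their values known. Alternatives were pseudocounts of 0.5 and 0.1, 2 rescalings, other levels, other filters and limma settings, list means, and each library left out.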

Additional observations from a re-analysis of the deposited data

Results flagged for a closer look

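Among 81 values tested (57 genes, 18 gene pairs and 6 list differences) 4 had 1 library far from the other 4, where chance gives about 1 in 20. The measure is the gap of the extreme library to its nearest neighbour as a share of the whole range on the log2(FPKM + 1) scale, with a critical value of 0.71 for 5 samples. Pkmyt1 was high in replicate 1 (gap 0.752), at 0.761 FPKM against 0.415 to 0.494 in the others. Birc5 was low in replicate 1 (0.727), at 292 FPKM against 334 to 351, and Cenpf was low there too (0.729), at 42.4 FPKM against 46.2 to 47.7. Cenpt was low in replicate 3 (0.795), at 43.2 FPKM against 50.6 to 52.8.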

How the results depend on the processing

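All 18 pair differences kept their direction and all 6 complex ratios moved by less than 1 SD under every alternative run. For the pairs this was fixed in advance, since all 5 libraries had the same direction. A pseudocount, a library factor or a library left out cannot reverse such a difference. Library factors act alike on all genes of a library, so they could move the complex ratios little. Against 1 FPKM, 854 of 855 values for single members kept their call. The exception was Pkmyt1 at a level of 0.5 FPKM (difference 0.0080, limma adjusted p = 0.897), which left 0 members below, also at an unadjusted p under 0.05. Against 10 FPKM 838 of 855 kept it. Members below numbered 3 after rescaling to a sum of 1000000 (Espl1 0.098, and Kntc1 no longer called at -0.13, while Fzr1 at 0.43 and Numa1 at 0.54 were called above), 2 at a level of 5 FPKM (Incenp 0.022, Kntc1 0.45, Espl1 0.68) and 8 at 20 FPKM (Anln -0.29). A filter at a mean of 0.1 FPKM left 3495 of all genes below 1 FPKM and 8800 below 10, since fewer low genes were tested.

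With list means, entry minus kinetochore was -0.041, entry minus checkpoint -0.62, entry minus exit 0.53, kinetochore minus checkpoint -0.58 and kinetochore minus exit 0.57. With Zw10 and Kntc1 counted as kinetochore genes, entry minus checkpoint was -1.72, kinetochore minus checkpoint -1.79 and checkpoint minus exit 1.74. Rescaling to a common sum left 12 members highest in replicate 4, and of all genes 2030 lowest in replicate 1, 1430 highest in replicate 4 and 4360 higher in replicate 4 than in replicate 1; the median ratio left 2457 lowest in replicate 1. No paired analysis was possible because there is 1 group. Other causes of these changes were not tested. Depth limits Pkmyt1 most, at 17.7 to 31.9 reads a library.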
